A study of Homo sapiens with 2 samples.

Results

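HOX genes encode homeodomain transcription factors that lie in 4 clusters, HOXA, HOXB, HOXC and HOXD, and the members described here were all genes on the array whose single gene symbol was HOX followed by a cluster letter and a position number. The rule found 23 genes, each with 1 probe set, among the 17687 genes that the named probe sets covered. RefSeq lists 39 human HOX genes, and the other 16 were not analysed here. The data came from 2 arrays of DLD-1, an established line from a human colorectal adenocarcinoma, grown as a single culture per condition. The siYY1 culture had received an siRNA against the zinc finger transcription factor YY1 (Hs_YY1_1) and the siControl culture the AllStars negative control siRNA, each at 5 nmol/L with Lipofectamine RNAiMAX, and RNA was collected after 3 days. The comparison asks what lowering YY1 does to the level of each HOX gene.

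HOX genes are arranged along each cluster in the order in which they are switched on along the body axis, with low position numbers active toward the head and high numbers toward the tail. Genes with the same number in different clusters are paralogs, copies of an ancestral gene. Adult epithelia, the colon included, keep part of this pattern, and Polycomb and trithorax proteins are known for holding HOX genes silent or active. In the fly, the DNA-binding Polycomb protein Pho is related to YY1.

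With a single array per condition there is no replicate error, no test and no p-value for any value given here, and the differences compare these arrays rather than the conditions. Values were taken as log2 and quantile normalized, and each difference is siYY1 minus siControl in log2 units, so that 1 is a 2-fold higher and -1 a 2-fold lower value on the siYY1 array. The number of arrays limits the precision. No named probe set analysed here stood for YY1, so its knockdown was not measured and the groups are called by their labels only. Of 12 colorectal epithelial markers 11 were named, with EPCAM at 16.47 in siYY1 and 16.29 in siControl, and 8 of these were bright enough to be compared. Of those 8 markers 3 were above 0 and 5 below, with a median of -0.09. Their differences ran from -0.76 for CDX2 to 0.18 for EPCAM. Of the named fibroblast, endothelial and blood markers, 1 of 7, 1 of 5 and 2 of 6 were bright enough. Those past 2-fold were ENG at 1.33 and haemoglobin HBA1 at 2.23, and the part of other cell types in any result was not tested. ENG was at 8.77 in siYY1 and 7.45 in siControl, bright enough in siYY1 only.

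Signal above background was found in the HOXB cluster. A gene was compared if its higher value on the 2 arrays reached 7.50, the median over all named genes, and 4 HOX genes did so: HOXB5, HOXB6, HOXB7 and HOXB9. As a measure of background, 348 olfactory receptor genes, which are not known to act in the colon, had higher values between 2.94 and 7.89, with the 97.5th percentile at 6.57. HOXB8 and HOXB13 lay below the brightness minimum, and HOXB8 was above that percentile only in siYY1 and HOXB13 only in siControl. The other 17 HOX genes, among them HOXA2 and all the HOXC and HOXD genes measured, were at or below it, in the range of genes that give little signal. Apart from these limits on brightness, values of different probe sets are not set against each other here. Probes differ in how strongly they bind their target, so the limits are only a guide. The plot of values by cluster and position shows each gene on both arrays.

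**Figure D1:**
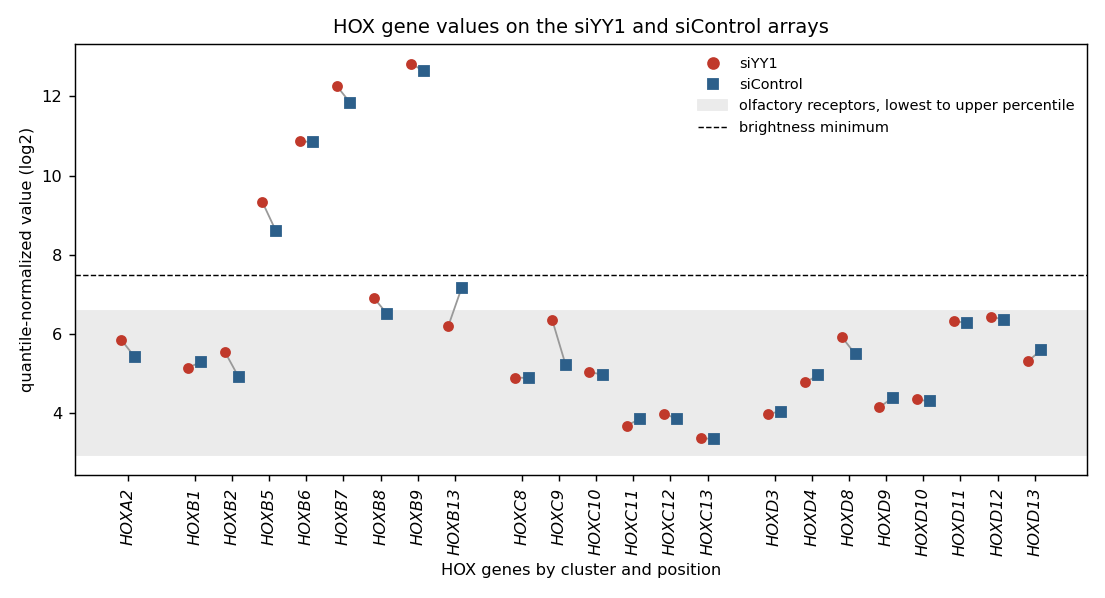
Quantile-normalized log2 value of each of the 23 HOX genes on the siYY1 array (red circles) and the siControl array (blue squares), 1 array each, ordered by cluster and position. HOXB5, HOXB6, HOXB7 and HOXB9 lie above the dashed brightness minimum of 7.50 on both arrays, and 17 genes lie within the grey band, which runs from the lowest olfactory receptor gene to the 97.5th percentile at 6.57.

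None of the 4 HOX genes compared differed 2-fold. Among the 8747 protein-coding genes compared, 7.92% were higher in siYY1 by 2-fold or more and 9.37% were lower by as much, 17.3% in all, so a count of 0 among 4 genes is close to that background. All 4 HOX genes were above 0, as were 49.5% of all genes compared. The 4 had a median of 0.31, against a median of -0.01 over all genes compared. The probe sets of the 20 genes that had more than 1 lay a median of 0.38 apart in their differences, a gap larger than the median of the 4 HOX genes.

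HOXB5, a central member that acts in the gut mesenchyme and the enteric nervous system of the embryo, was at 9.33 in siYY1 and 8.61 in siControl. The difference of 0.72, a 1.65-fold higher value, was the largest among the 4 compared and did not reach 2-fold. HOXB7, which is often raised in epithelial tumours, was at 12.27 in siYY1 and 11.84 in siControl, a difference of 0.42. HOXB9, a posterior member of the same run, was at 12.83 in siYY1 and 12.63 in siControl, a difference of 0.20. For HOXB6 the values were 10.86 in siYY1 and 10.85 in siControl, a difference of 0.02 that turned to -0.11 in the values as deposited. These 4 genes, which lie side by side apart from the dimmer HOXB8 between HOXB7 and HOXB9, were bright on both arrays.

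The dimmer HOXB genes lay on both sides of 0. HOXB8 was at 6.91 in siYY1 and 6.50 in siControl, a difference of 0.40. HOXB2, a member of the hindbrain group, was at 5.53 in siYY1 and 4.91 in siControl, a difference of 0.62 within the range of background values. With these, 6 of the 8 HOXB genes measured were above 0, HOXB6 by only 0.02, against 49.6% of all protein-coding genes. HOXB1, at the head end of the cluster, was at 5.14 in siYY1 and 5.30 in siControl, a difference of -0.16 that was 0.00 in the values as deposited and 0.01 after centring on the medians. Across the 8 HOXB genes the median was 0.30.

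HOXB13 lies at the far end of the cluster and is known as a marker of the prostate and the distal colon and rectum. Its difference was the lowest of the 23 genes. HOXB13 was at 6.19 in siYY1 and 7.16 in siControl, a difference of -0.97 or 1.95-fold lower, just short of 2-fold. Its siYY1 value was below the 97.5th percentile of the olfactory receptor genes and its siControl value above it, so the size of this difference is uncertain. PRAC1 and PRAC2, small genes beside HOXB13 that are known from the same tissues, were dim on both arrays. PRAC1 was at 4.19 in siYY1 and 4.40 in siControl, and PRAC2 at 6.09 in siYY1 and 6.20 in siControl, so they differed by -0.21 and -0.12.

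In the HOXC cluster only HOXC9 stood away from 0, and it was the only HOX gene past 2-fold. HOXC9, a posterior member related to HOXB9 and HOXD9, was at 6.35 in siYY1 and 5.22 in siControl, a 2.19-fold higher value with a difference of 1.13. Both values were below the 97.5th percentile of the olfactory receptor genes. Of the 8498 dim protein-coding genes left out of the comparison 3.06% differed at least 2-fold, as did 2.3% of the olfactory receptor genes, whose differences ran from -1.32 to 1.44. There were 19 dim HOX genes, so 1 past 2-fold is not far from that background. Its neighbour HOXC8 was at 4.89 on both arrays and differed by 0.00, and HOXC10 was at 5.04 in siYY1 and 4.96 in siControl. The remaining HOXC11, HOXC12 and HOXC13 were between 3.37 and 3.99 in siYY1 and between 3.34 and 3.86 in siControl, with differences of -0.17, 0.13 and 0.03.

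The 8 HOXD genes were all in the background range and centred on a difference of -0.01. HOXD8 had the highest difference at 0.43, with 5.91 in siYY1 and 5.48 in siControl. HOXD13, a limb and hindgut gene at the tail end of its cluster, had the lowest at -0.30, with 5.31 in siYY1 and 5.60 in siControl. HOXD9 was at 4.15 in siYY1 and 4.39 in siControl, and HOXD4 at 4.78 in siYY1 and 4.95 in siControl. HOXD3, HOXD10, HOXD11 and HOXD12 differed by -0.06 to 0.07. Of these HOXD12 was at 6.43 in siYY1 and 6.36 in siControl, HOXD11 at 6.32 in siYY1 and 6.28 in siControl, HOXD10 at 4.35 in siYY1 and 4.30 in siControl, and HOXD3 at 3.99 in siYY1 and 4.04 in siControl. The only HOXA gene measured, HOXA2, a patterning gene of the hindbrain and second pharyngeal arch, was at 5.86 in siYY1 and 5.42 in siControl, a difference of 0.43.

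**Figure D2:**
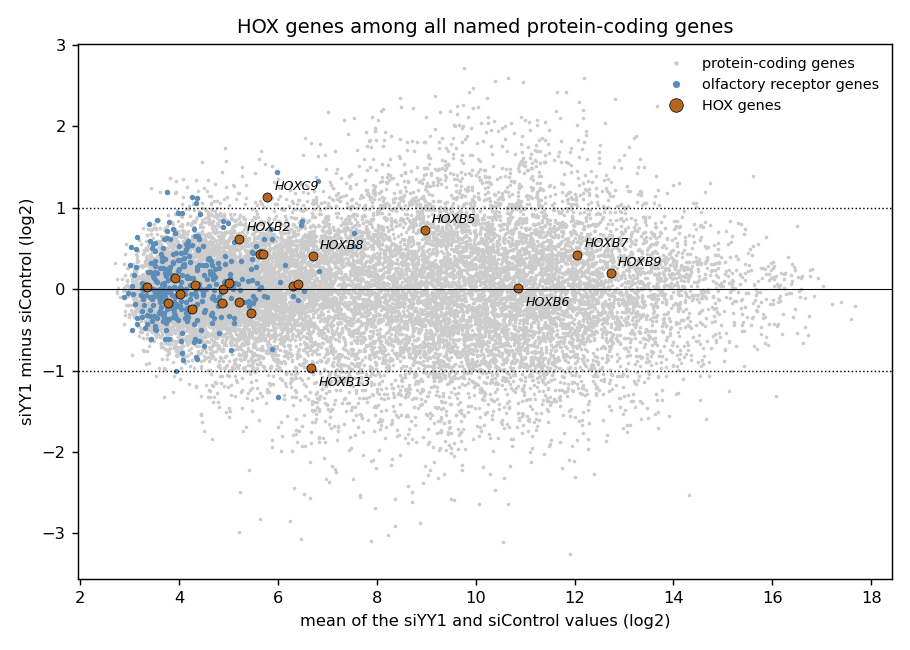
Difference between siYY1 and siControl (log2) against the mean of the 2 values (log2) for all named protein-coding genes (grey), the olfactory receptor genes (blue) and the 23 HOX genes (brown), with dotted lines at 2-fold. HOXC9 lies just above the upper line at 1.13 and HOXB13 just inside the lower line at -0.97, while HOXB5, HOXB6, HOXB7 and HOXB9 lie between 0.02 and 0.72.

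By position, the 4 anterior genes measured (positions 1 to 3) had a median difference of 0.19, the 7 central genes (4 to 8) a median of 0.40 and the 12 posterior genes (9 to 13) a median of 0.04. Of the central genes 6 were above 0, and 4 of those were HOXB5, HOXB6, HOXB7 and HOXB8, so position and cluster overlap in this comparison. Paralogs could not be compared in direction, since no position had more than 1 gene above the olfactory receptor percentile. At position 9 the differences were 1.13 for HOXC9, 0.20 for HOXB9 and -0.24 for HOXD9, and at position 13 they were -0.97 for HOXB13, 0.03 for HOXC13 and -0.30 for HOXD13. At position 8 HOXB8 and HOXD8 were at 0.40 and 0.43 and HOXC8 at 0.00. Over all 23 genes, 16 were above 0 and 7 below, with a median of 0.05. The share above 0 was 49.6% among all protein-coding genes and 52.6% among the olfactory receptor genes. In the values as deposited 16 HOX genes were also above 0, and the median of the 23 was 0.18. Most of these genes were dim, and the lower quartile of all deposited values was higher as well, at 4.91 in siYY1 and 4.74 in siControl.

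Of 24 listed non-coding genes of the clusters, 2 antisense genes were named, and both were bright. HOXB-AS3, whose RefSeq span overlaps HOXB5 and HOXB6, was at 12.96 in siYY1 and 12.34 in siControl, a difference of 0.62. Of the genes it overlaps, HOXB5 differed by 0.72 and HOXB6 by 0.02, or by -0.11 in the values as deposited. HOXA-AS3, whose span overlaps HOXA3, HOXA5, HOXA6 and HOXA7, was at 8.73 in siYY1 and 9.52 in siControl, a difference of -0.79. None of the HOX genes it overlaps was analysed here, so signal on the HOXA cluster was seen through this non-coding gene alone. Neither passed 2-fold.

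RefSeq's table of GRCh38.p14 gave the bases before the start of 9 of the 23 HOX genes: HOXA2, HOXB1, HOXD3, HOXD4, HOXD8, HOXD10, HOXD11, HOXD12 and HOXD13. The 250 bases before each start were searched on both strands for CCATNTT, the core of the YY1 site, and for ATGGCGG, another form of it of the same length that can overlap it. They were also searched for TGATTNAT, a site that HOX proteins bind together with PBX. The motifs and the stretches shown were chosen with the values known. Of the 9 stretches 4 held a match. The YY1 core was in those of HOXD3 and HOXD10, 2 of 9, against 11.6% of the 35116 stretches in the table, and the other form was in that of HOXD3, against 2.88% of all. The PBX and HOX site was in those of HOXA2 and HOXD11, 2 of 9, against 2.48% of all. All 4 genes were in the background range on both arrays, with differences of -0.06 for HOXD3, 0.05 for HOXD10, 0.43 for HOXA2 and 0.04 for HOXD11. A match describes the letters and does not show binding. HOXA2 is shown as the only HOXA gene measured, and the others because they hold a match. Each is written 5′ to 3′ on the strand of its gene, with matches in capitals. The HOXD3 stretch lies inside the span of that gene, and 30 bases of it are given.
HOXA2, chr7:27102684-27102933, minus strand: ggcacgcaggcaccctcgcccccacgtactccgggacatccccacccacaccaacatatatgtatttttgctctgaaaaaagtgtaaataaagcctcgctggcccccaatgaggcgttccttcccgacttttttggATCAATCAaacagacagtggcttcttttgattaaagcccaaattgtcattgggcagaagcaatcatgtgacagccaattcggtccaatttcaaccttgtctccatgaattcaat
HOXD11, chr2:176107030-176107279, plus strand: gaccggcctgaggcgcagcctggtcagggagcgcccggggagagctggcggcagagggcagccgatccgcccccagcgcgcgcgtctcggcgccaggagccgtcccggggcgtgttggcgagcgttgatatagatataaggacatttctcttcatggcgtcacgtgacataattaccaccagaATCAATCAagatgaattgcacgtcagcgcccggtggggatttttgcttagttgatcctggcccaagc
HOXD10, chr2:176116528-176116777, plus strand: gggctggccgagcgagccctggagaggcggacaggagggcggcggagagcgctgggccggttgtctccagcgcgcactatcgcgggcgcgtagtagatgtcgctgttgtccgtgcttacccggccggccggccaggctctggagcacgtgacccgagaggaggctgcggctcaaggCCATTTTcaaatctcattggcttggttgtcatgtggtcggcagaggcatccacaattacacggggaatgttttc
HOXD3, chr2:176157106-176157135, plus strand: gcccgcctgcCCGCCATGTTggggagccct

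In HOXA2 and HOXD11 the capitals spell ATCAATCA, the PBX and HOX site read from the other strand, which begins 114 and 67 bases before the start. In HOXD10 the YY1 core CCATTTT begins 74 bases before the start. In HOXD3 the capitals join both forms of the YY1 core, which begin 191 and 188 bases before the start.

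Genes flanking the HOX clusters were lower more often than higher, and some differed more than any bright HOX gene. Of the 30 flanking genes listed 28 were named and 23 bright enough to be compared, of which 5 were at least 2-fold lower and none at least 2-fold higher. Over all genes compared the shares were 9.37% lower and 7.92% higher. Of the bright flanking genes 8 were above 0 and 15 below, with a median of -0.25. Over all genes compared 49.5% were above 0, with a median of -0.01. The list was written with earlier results of these data known.

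The HOXC cluster had a lower gene on each side. CALCOCO1, a coactivator of nuclear receptors and a receptor for selective autophagy, was at 7.07 in siYY1 and 9.04 in siControl, 3.93-fold lower. Its siYY1 value was below the brightness minimum. SMUG1, a glycosylase that removes uracil from DNA, was at 8.67 in siYY1 and 10.63 in siControl, 3.90-fold lower. The bright genes farther out, ATP5MC2, HNRNPA1 and COPZ1, differed by 0.26, -0.24 and -0.25, so differences of that size were limited to the pair next to the cluster among the 5 bright HOXC flanking genes.

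Beside HOXD, LNPK, which shapes junctions of the endoplasmic reticulum, was at 8.99 in siYY1 and 10.08 in siControl, a difference of -1.08. MTX2, a protein of the mitochondrial outer membrane at the other end of that cluster, was at 9.31 in siYY1 and 10.10 in siControl, a difference of -0.79. The cluster-linked homeobox gene EVX2, between LNPK and HOXD13, was dim, at 7.19 in siYY1 and 6.30 in siControl, with a difference of 0.89. Beside HOXA, the adaptor protein gene SKAP2 was at 9.21 in siYY1 and 10.27 in siControl, a difference of -1.06, and on the other side HIBADH, an enzyme of valine breakdown, differed by -0.67. The other bright flanking genes lay near or above 0, with ATF2, ATP5MC3 and NFE2L2 beside HOXD at 0.04, 0.13 and 0.39 and TAX1BP1, JAZF1 and SNX10 beside HOXA at 0.17, 0.06 and -0.04. The median was 0.04 over the 5 bright genes flanking HOXD and -0.04 over the 5 flanking HOXA.

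Around HOXB, CDK5RAP3, part of the machinery that attaches the modifier UFM1 to proteins, was at 9.81 in siYY1 and 10.98 in siControl, a difference of -1.17. SKAP1, the flanking gene nearest to HOXB1, differed by -0.77 and SNX11, a sorting nexin, by -0.63. SKAP1 was at 7.03 in siYY1 and 7.80 in siControl, so it reached the brightness minimum in siControl only. NFE2L1 and CBX1, which lie between CDK5RAP3 and SNX11, differed by 0.27 and -0.08. On the HOXB13 side UBE2Z and ATP5MC1 differed by -0.66 and -0.59 and CALCOCO2 by 0.16. Of the 8 bright HOXB flanking genes 6 were below 0, with a median of -0.61. Bright HOXB genes and HOXB-AS3, between 0.02 and 0.72, thus lay within a segment whose bright flanking genes were mostly below 0.

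**Figure D3:**
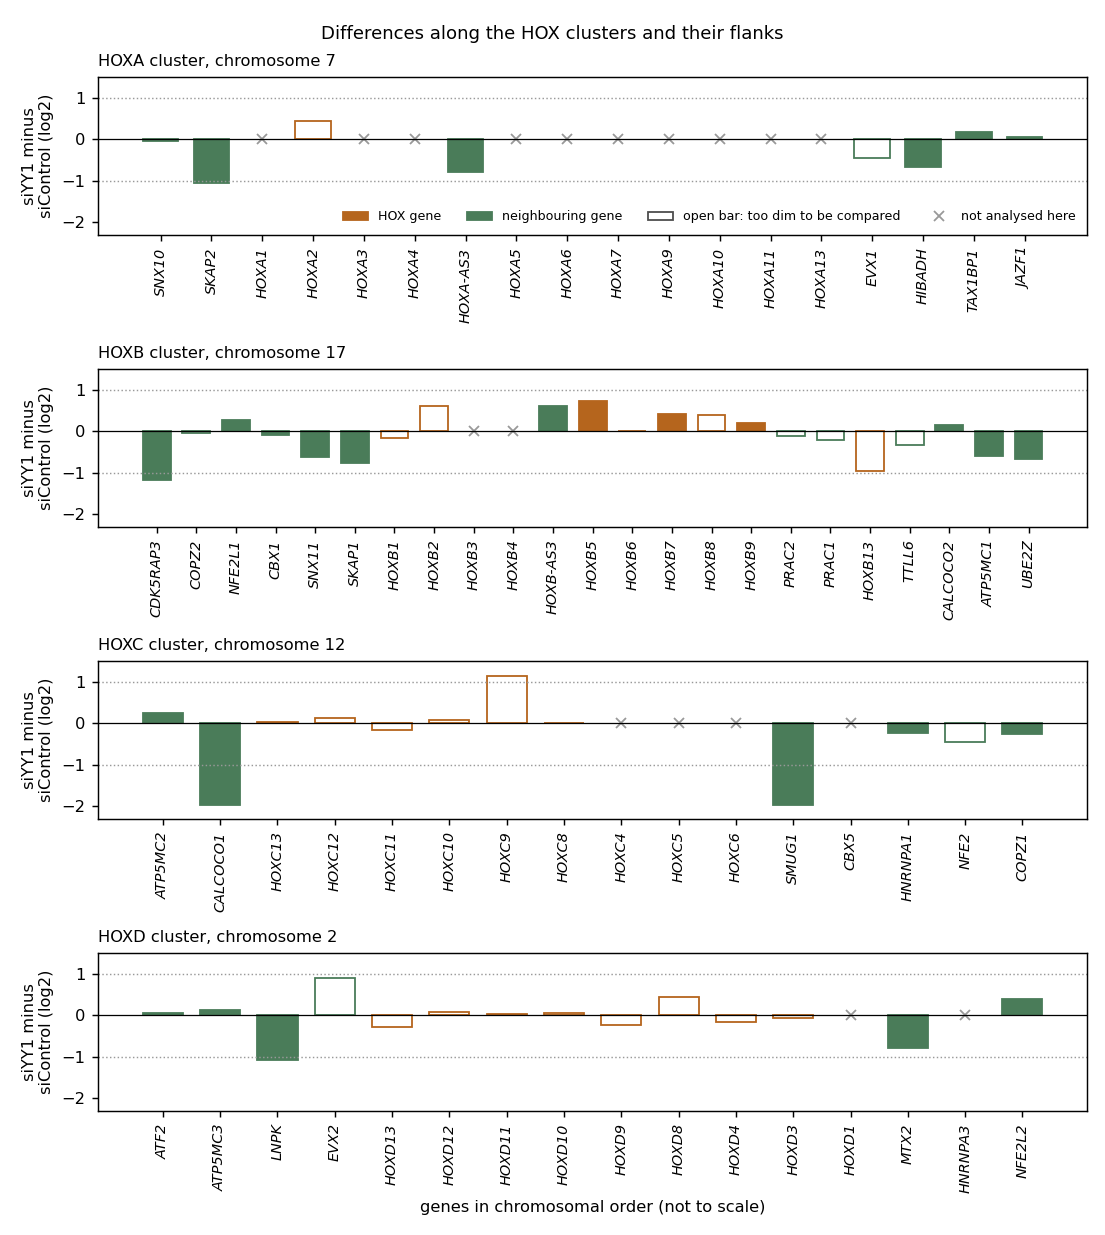
Difference between siYY1 and siControl (log2) for HOX genes (brown bars) and neighbouring genes (green bars) in chromosomal order along each cluster, not to scale. Open bars are genes too dim to be compared, crosses genes not analysed here and dotted lines 2-fold. CALCOCO1 and SMUG1 are past 2-fold on either side of the HOXC genes, at -1.97 and -1.96. HOXB5 to HOXB9 are above 0, while HOXB1 and HOXB13 are below.

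HOX proteins bind DNA together with TALE homeodomain cofactors of the PBX, MEIS and PKNOX families. Of 9 such genes 7 were named and 3 were bright, and none passed 2-fold. PKNOX1 was at 12.42 in siYY1 and 11.60 in siControl, a difference of 0.81. PBX2 was at 9.57 in siYY1 and 8.85 in siControl, a difference of 0.72, and MEIS2 at 8.25 in siYY1 and 8.18 in siControl, a difference of 0.07. The median of these 3 was 0.72, and the dim PBX3, PBX4, MEIS1 and MEIS3 lay between -0.02 and 0.64.

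CDX2, a relative of the HOX genes that sets hindgut and intestinal identity and can activate HOX genes, was at 12.31 in siYY1 and 13.07 in siControl. It was 1.69-fold lower, a difference of -0.76, and the only bright gene of the 13 in its list. The other 12, including CDX1 at 0.30, PDX1 at -0.44 and EVX1 at -0.45, were dim, with a median of 0.07. Among 86 other developmental homeobox genes named, only MSX2, ISL2, PITX1 and OTX1 were bright, with differences of -0.57, -0.53, -0.19 and -0.03. Their median of -0.36 stood beside 0.31 for the 4 bright HOX genes, with no test of that difference. ISL2 reached the brightness minimum in siControl only, at 7.48 in siYY1 and 8.01 in siControl. The median over all 86 was -0.08, beside 0.05 over the 23 HOX genes.

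Among the regulators that act on HOX genes, no bright Polycomb gene was past 2-fold, against 17.3% of all genes compared. Trithorax and related activators had members past 2-fold on both sides, and the difference between these lists was not tested. Of 29 Polycomb genes 22 were bright, with a median of 0.21 and a range of -0.90 for PHF19 to 0.66 for AEBP2. EZH2, the main methyltransferase of the complex PRC2, was at 11.46 in siYY1 and 11.02 in siControl, a difference of 0.45, and its partner SUZ12 differed by 0.58. RING1, a ubiquitin ligase of the complex PRC1, differed by -0.69. In the values as deposited PHF19 was just past 2-fold lower.

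All 18 named activators were bright and had a median of 0.61, with 7 higher by 2-fold or more and 2 lower by as much, against 7.92% and 9.37% of all genes compared. KMT2A, the methyltransferase best known for keeping HOX genes active, was at 10.69 in siYY1 and 8.54 in siControl, 4.43-fold higher. Its relatives KMT2B and KMT2C differed by 2.10 and 2.07 and KMT2D by 1.69. KMT2B was at 8.60 in siYY1 and 6.50 in siControl, so it reached the brightness minimum in siYY1 only. The siControl value of KMT2B was in the range of background values, so the size of its difference is uncertain. HCFC1, a cofactor in these complexes, was at 1.96, and AFF4, a scaffold of the super elongation complex, at 1.70. DOT1L, named after its value was seen, was at 1.20. In the other direction MEN1, also named afterwards, which encodes the menin subunit that tethers KMT2A to HOX genes, was at 9.69 in siYY1 and 11.33 in siControl, 3.11-fold lower. RBBP5, a core subunit of the same complexes that was likewise named afterwards, differed by -1.09. Genes with wide genomic spans also had a higher median on the siYY1 array. It was 0.22 for the 875 genes compared that had the widest spans and 0.00 for as many with the narrowest. Among the activators the median was 0.61 for the 4 in that widest group, which ranged from -0.13 to 2.07, and 0.60 for the other 14. The part of gene span in the differences of the activators was not tested.

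Retinoic acid is a known inducer of HOX genes. Of 17 genes of retinoid signalling 14 were named and 5 bright. CRABP2, which carries retinoic acid to its receptors, was at 9.24 in siYY1 and 7.03 in siControl, 4.63-fold higher, and the receptor RXRB was at 11.95 in siYY1 and 10.29 in siControl, 3.16-fold higher. CRABP2 and RARA reached the brightness minimum in siYY1 only. RARA, RDH10 and RARG differed by 0.71, 0.57 and 0.02, which gave the 5 a median of 0.71. Both genes past 2-fold were higher, against a background of 7.92%, in a list of 5 that is too short to be read as a group.

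**Figure D4:**
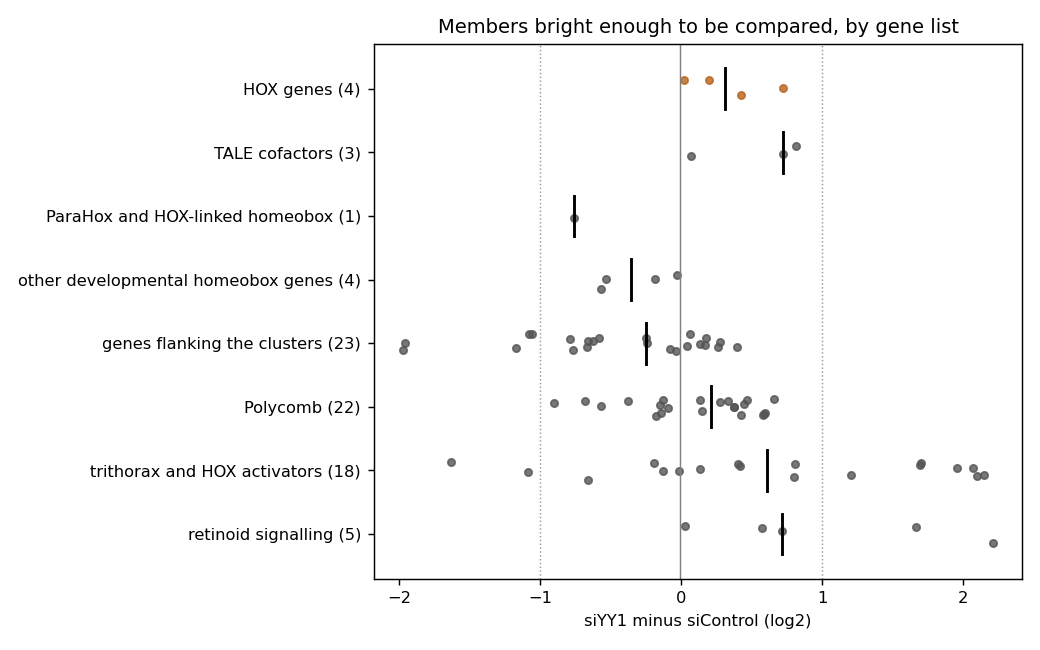
Difference between siYY1 and siControl (log2) of each member bright enough to be compared (points) with the median of each list (black bar), the number of members in brackets, dotted lines at 2-fold and a grey line at the median of all genes compared, -0.01. The 4 HOX genes lie between 0.02 and 0.72, inside the 2-fold lines, while trithorax genes lie on both sides of them.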

How the data were processed

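Biotin-labelled sense-strand cDNA was hybridized to a whole-transcript GeneChip array, 1 array per group, per the labels' protocols. The authors deposited 1 value per probe set, taken here as log2 from the range of 2.51 to 17.9. No source used here gives the software or the normalization behind them. Deposited medians were 6.93 for siYY1 and 6.86 for siControl and the quartiles differed, so the pair was quantile normalized. The platform annotation named 17709 of 21448 probe sets with 1 gene symbol each. Symbols were updated through gene IDs to RefSeq (GRCh38.p14), and probe sets of a gene averaged. No source used here names a genome build for the array, so the only coordinates printed are those of the sequences, which are RefSeq's on GRCh38.p14. Protein-coding genes at or above the brightness minimum were compared and counted at 2-fold, with no test.

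The members and the 8 gene lists and 4 marker lists were chosen with earlier results of these data known. Every HOX gene is named. In other lists, bright members past 2-fold are named, up to 6 by size, and all bright TALE and ParaHox genes. Other genes were named after their values were seen. The sequence rule, bright members and paralogs, gave way to the members with an entry in RefSeq's table. The computation was tested on simulated data. Alternatives were the values as deposited, median centring, lowess, the brighter probe set, and other filters and folds. Python 3.11.15, numpy 2.4.6, pandas 2.3.3, statsmodels 0.14.6 and matplotlib 3.10.9 were used.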

Additional observations from a re-analysis of the deposited data

How the results depend on the processing

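With 1 array per group, all values rest on single arrays and have no error, and 19 of the 23 HOX genes were too dim for their differences to be read. Under the 3 other scalings, 19 HOX genes kept their sign and 4 changed it, none of those with a difference beyond 0.17 in size: HOXB6, HOXB1, HOXD3 and HOXD4. Each HOX gene had 1 probe set, so the rule for probe sets could not move it. HOXC9 stayed between 1.12 and 1.29 and HOXB13 between -0.97 and -0.86. In the deposited values 536 genes were at least 2-fold higher and 1067 lower, so that 33.4% were higher, against 45.8% in the quantile-normalized values, and the median moved to -0.13. The number of HOX genes at least 2-fold higher, 0 among the 4 compared, was 1 without a brightness filter, which adds HOXC9, and 1 at 1.5-fold, which adds HOXB5. Over all genes compared, the 693 higher and 820 lower became 365 and 381 above the 75th percentile of brightness, 1699 and 1909 at 1.5-fold, and 165 and 213 at 3-fold. The flanking genes at least 2-fold lower, 5 in the report, were 2 above the 75th percentile, 11 at 1.5-fold and 2 at 3-fold. Of the trithorax genes, 4 were higher and 1 lower above the 75th percentile, and 1 was lower at 3-fold. Polycomb genes past the threshold on the lower side were 1 in the deposited values, 1 after centring and 2 at 1.5-fold, and 3 were higher at 1.5-fold. The changes with the filter and the fold follow from fewer or more genes being counted. For the Polycomb gene that passed under the other scalings, PHF19, the cause was not tested. The alternatives for the flanking, trithorax and Polycomb lists were chosen after seeing the data. No paired analysis was possible because each group held 1 array.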

Other observations

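Some genes of the lists of other homeobox genes and of retinoid signalling differed 2-fold but were too dim to be compared. SIX4, a homeobox gene of muscle and placode development, differed by -1.86, PROX1, a homeobox gene of lymphatic and liver development, by 1.35, and CYP26B1, an enzyme that breaks down retinoic acid, by 1.01. These were the only dim members past 2-fold in those lists, 2 of 82 homeobox genes and 1 of 9 retinoid genes. Of all dim protein-coding genes 3.06% passed the same threshold.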
